A study of Mus musculus with 6 samples.

Results

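The genes described here are the nuclear receptor Ppara, the fatty acid oxidation genes Cpt1a and Acaa2, and the peroxisome division gene Pex11a. They were followed in the cardiac apex of db/db and C57BL/6 mice. All 4 were chosen by name, each through the 1 probe that carries its RefSeq accession on a circRNA array, so they are 4 of the 50 mRNA probes and of the 14330 non-control probes of that array. The probes of Ppara (NM_011144), Cpt1a (NM_013495), Acaa2 (NM_177470) and Pex11a (NM_011068) were named from their accessions with the RefSeq gene table of GRCm38.p6.

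The study set 3 db/db mice against 3 C57BL/6 mice, all 21 weeks old, with 1 array per mouse and no treatment in either group. Mice called db/db carry mutant leptin receptor genes in every cell and become obese and diabetic. The labels give neither the strain in which the db/db mice were bred nor the sex of the mice, so strain background and genotype cannot be told apart. Before labelling, total RNA was digested with RNase R, which degrades linear RNA and spares circles. An mRNA probe therefore reads what linear RNA was left, together with any circle that holds its target, and these cannot be told apart. In whole tissue, a lower reading from fewer cells of a type and one from less RNA per cell cannot be told apart either.

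The heart draws most of its energy from fatty acids. PPAR-alpha, the protein of Ppara, is a ligand-activated receptor that pairs with the retinoid X receptor and switches on genes for fatty acid uptake and oxidation in mitochondria and peroxisomes. Cpt1a makes the carnitine esters that carry long-chain fatty acids into mitochondria (a liver form that the heart also contains beside the muscle form), and Acaa2 is the thiolase that cuts acetyl-CoA from shortened chains inside them. Pex11a is a membrane protein that elongates peroxisomes ahead of their division, and peroxisome proliferators induce it through PPAR-alpha.

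Cpt1a and Pex11a are known targets of the receptor, and the bases just before their starts are shown because they hold letters of the half-site that nuclear receptors of this class read. Sequences are from RefSeq on GRCm38.p6, 5′ to 3′ on the gene's strand, 250 bases ending at the base before the annotated start. They lie at chr19:3323051-3323300 on the + strand for Cpt1a and at chr7:79743132-79743381 on the - strand for Pex11a. Capitals mark AGGTCA or its variant GGGTCA, searched on both strands.
Cpt1a: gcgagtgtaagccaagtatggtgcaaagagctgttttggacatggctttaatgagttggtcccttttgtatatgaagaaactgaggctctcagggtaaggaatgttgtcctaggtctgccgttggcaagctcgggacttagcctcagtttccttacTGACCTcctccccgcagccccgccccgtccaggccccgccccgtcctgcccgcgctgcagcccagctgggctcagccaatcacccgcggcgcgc
Pex11a: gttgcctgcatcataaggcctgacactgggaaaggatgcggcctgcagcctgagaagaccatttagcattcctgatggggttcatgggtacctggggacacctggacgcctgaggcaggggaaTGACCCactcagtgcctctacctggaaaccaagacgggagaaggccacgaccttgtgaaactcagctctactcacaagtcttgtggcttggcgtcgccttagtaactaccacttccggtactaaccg
The Cpt1a window held AGGTCA once, and the Pex11a window held GGGTCA once, both on the opposite strand. AGGTCA was found in 14% of 32851 RefSeq windows of this length and GGGTCA in 11.6%. Since both were searched, the matching rate is that of either half-site, 23.8% of these windows, so a match is common. The tandem site AGGTCANAGGTCA, which contains AGGTCA at both ends, was in none of the 3 windows searched, those of Cpt1a, Pex11a and Ppara, and in 0.0335% of all. The Ppara window held neither half-site, and no window of Acaa2 was searched. A match is a description of the sequence, and the arrays measured RNA, not binding.

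Each array's brightness was summarised as the 75th percentile of processed intensity, the background-subtracted and detrended brightness of a spot. It ran at 715, 557 and 399 for C57BL/6 replicates 1 to 3 and at 494, 296 and 376 for db/db replicates 1 to 3. Replicates 1 and 2 of C57BL/6 shared slide 1, a slide being the arrays with one scan identifier in the file headers, and the other 4 arrays shared slide 2. Of the 60 spots per gene, 3 of Ppara, 5 of Cpt1a, 4 of Acaa2 and 3 of Pex11a were marked as outliers and left out, and none was saturated. All 240 spots were marked well above background, but so were 14 of 15 probes named as negative controls, at intensities of 3.21 to 984 over all 15. The mark alone is therefore no sign that a transcript was present. The 77 negative control spots of each array were far dimmer, with medians of 1.01 to 1.22 and a highest value of 5.36, below the lowest array reading of any of the 4 genes (24.6, Ppara). The highest negative-named reading (984), however, was above every array reading of Ppara (at most 140) and Cpt1a (at most 231). It was also above the Acaa2 readings of db/db replicates 2 and 3 (588 and 823). The negatives therefore do not settle whether Ppara and Cpt1a transcripts were present, nor whether that of Acaa2 was on those db/db arrays. Of 15 cardiomyocyte markers only Hspb7 had a probe, and of 39 markers of fibroblasts, endothelium, smooth muscle and pericytes, leukocytes, adipocytes and blood 0 had one, so the labelled tissue was checked on 1 gene and the share of other cells was not measured here.

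The receptor gene Ppara read lower in db/db. Its processed intensity came to 140, 133 and 50.3 for C57BL/6 replicates 1 to 3, against 70.0, 24.6 and 37.6 for db/db replicates 1 to 3. Relative to the 75th percentile of its array, which is the level used from here on, it stood at -2.35, -2.06 and -2.99 in C57BL/6 and at -2.82, -3.59 and -3.32 in db/db, on the log2 scale. The groups overlapped, since C57BL/6 replicate 3 lay below db/db replicate 1, while the other 2 db/db arrays lay below every C57BL/6 array.

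The Ppara level averaged -2.47 ± 0.47 in C57BL/6 against -3.24 ± 0.39 in db/db (mean ± SD, n = 3), a 1.71-fold lower reading. The log2 difference was -0.78 ± 0.27 (SE, n = 3 per group), with a 95% confidence interval from -1.38 to -0.17 in limma. It had an unadjusted p of 0.0179 and an adjusted p of 0.393 by limma with Benjamini-Hochberg adjustment over the 14312 probes tested, and an exact permutation p of 0.2. This was the lowest difference of all 50 mRNA probes, and 1.32% of all probes tested had one as low or lower.

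The median spot signal of the Ppara probe was only 2.25 to 8.50 times the local background. Its 10 spots agreed closely on each array, with an SD of 0.052 to 0.096 on the log2 scale, well under the spread between arrays of a group. At each of its 10 spot positions db/db averaged lower, by -0.59 to -0.87. Of the 9 positions with no outlier on any array, 0 had every db/db array below every C57BL/6 array. The lower average was thus shared by all spot positions, but they repeat 1 probe on the same arrays and add no support. The arrays of the 2 slides differed. Within C57BL/6, the array on slide 2 read 0.78 lower than the mean of the pair on slide 1 (levels -2.99 and -2.21), the largest such drop among the 50 mRNA probes. Within slide 2, where replicate 3 is the only C57BL/6 array, the log2 difference of Ppara was -0.26 (limma adjusted p = 0.99991).

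**Figure D1:**
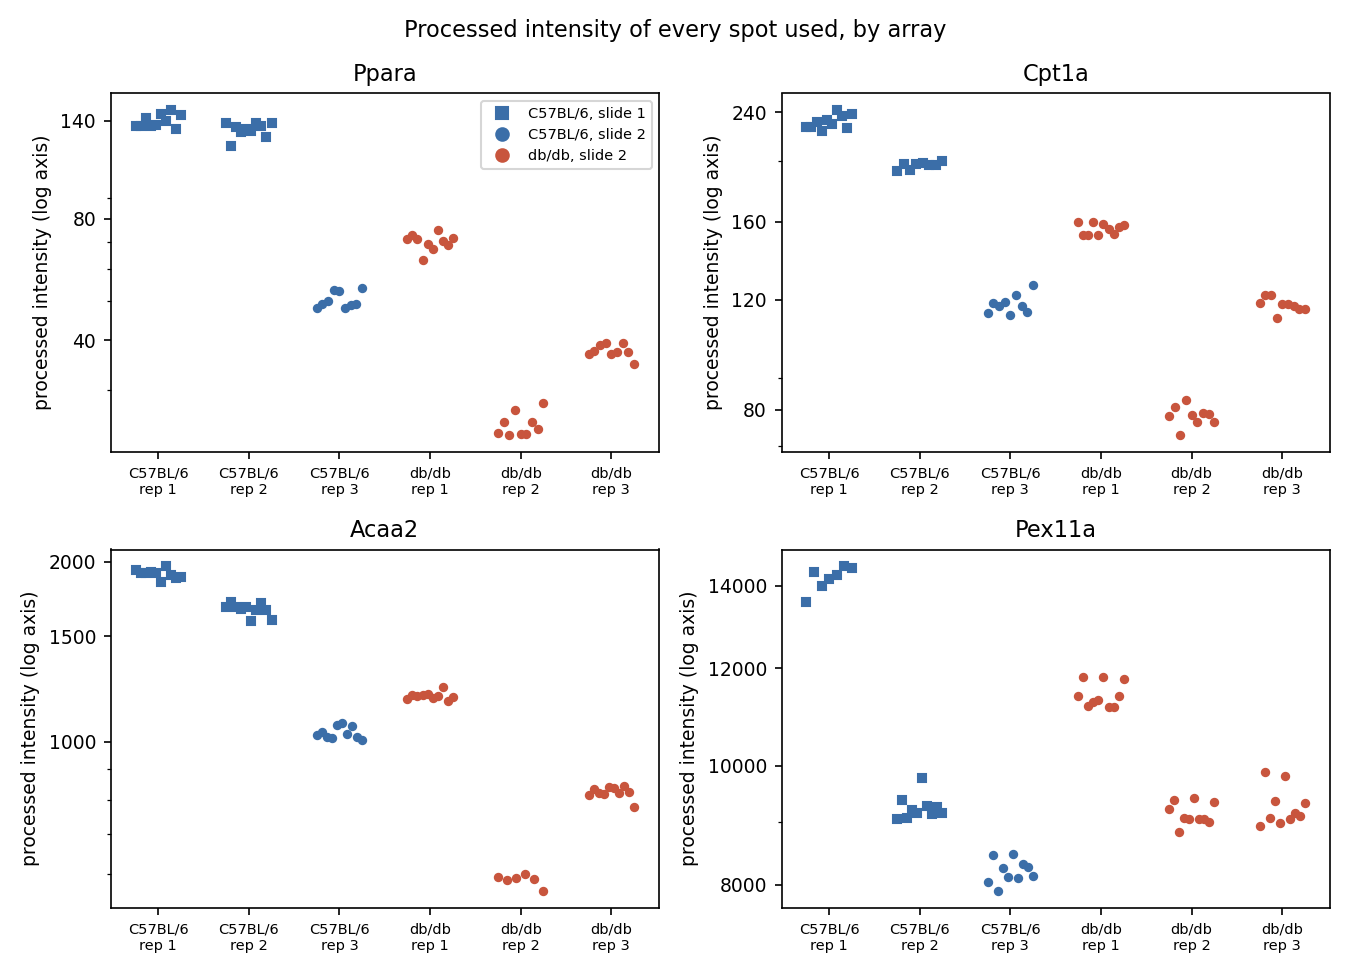
Processed intensity (vertical log axis) of each spot used, in order of position, for the 6 arrays (horizontal), in 1 panel per gene; squares are slide 1, circles slide 2, blue C57BL/6 and red db/db. Spots of an array lie close together, and for Ppara the C57BL/6 array of slide 2 (50.3) sits among the db/db arrays (24.6 to 70.0).

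The mitochondrial genes Cpt1a and Acaa2 also averaged lower in db/db, by less than Ppara. For Cpt1a, the C57BL/6 replicates 1 to 3 gave processed intensities of 231, 197 and 118, and the db/db replicates gave 156, 78.1 and 118. Its level was -1.63, -1.50 and -1.76 in C57BL/6 and -1.66, -1.92 and -1.68 in db/db. The groups overlapped, with 2 of the 3 db/db arrays above C57BL/6 replicate 3.

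For Cpt1a the log2 difference was -0.13 ± 0.15 (SE, n = 3 per group), with a 95% confidence interval from -0.47 to 0.22 and a limma adjusted p of 0.797. That interval holds a 1.38-fold lower as well as a 1.16-fold higher level, so these arrays do not settle a change of that size in either direction. Within slide 2 the difference was 0.00277. Its sign turned there, and also with slide as a block (0.00277), with array weights (0.0109) and with normexp background correction at an offset of 50 (0.000725).

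Acaa2 gave the clearest separation among the 3 genes with lower averages. Its probe gave processed intensities of 1908, 1663 and 1036 for C57BL/6 replicates 1 to 3 and of 1194, 588 and 823 for db/db replicates 1 to 3. The level of Acaa2 was 1.42, 1.58 and 1.38 in C57BL/6 and 1.27, 0.99 and 1.13 in db/db. In level, every db/db array lay below every C57BL/6 array, with 0.10 between the nearest 2 arrays. The intensities overlapped, with db/db replicate 1 (1194) above C57BL/6 replicate 3 (1036), so the separation of Acaa2 rests on the correction for array brightness.

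Acaa2 averaged 1.46 ± 0.11 in C57BL/6 against 1.13 ± 0.14 in db/db (mean ± SD, n = 3), a 1.25-fold lower reading. The log2 difference was -0.33 ± 0.15 (SE, n = 3 per group), with a 95% confidence interval from -0.66 to 0.01 and a limma adjusted p of 0.479. The exact permutation p was 0.1, the smallest that 3 arrays against 3 can give. Acaa2 was the only mRNA probe with every db/db array below every C57BL/6 array, 2% of the 50, while 7.21% of all probes tested separated in that direction. Within slide 2 its difference was -0.25. That all 3 db/db arrays lay below C57BL/6 replicate 3 follows from the separation above, and 9 of the 50 mRNA probes did so. At the 6 Acaa2 spot positions with no outlier on any array, every db/db array was below every C57BL/6 array. These spots repeat 1 probe on the same arrays, so they add no support to the group difference.

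Pex11a ran the other way and read higher in db/db. Processed intensities of 14201, 9243 and 8207 were read for C57BL/6 replicates 1 to 3, and of 11418, 9139 and 9260 for db/db replicates 1 to 3. Against the 75th percentile of each array these became levels of 4.31, 4.05 and 4.36 in C57BL/6 and 4.53, 4.95 and 4.62 in db/db. The intensities overlapped, but the levels did not, with 0.17 between the highest C57BL/6 and the lowest db/db array. The separation of Pex11a therefore rests on the correction for array brightness, and db/db replicate 2, the dimmest array, had the highest level.

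The Pex11a level averaged 4.24 ± 0.17 in C57BL/6 against 4.70 ± 0.22 in db/db (mean ± SD, n = 3), a 1.37-fold higher reading. The log2 difference was 0.46 ± 0.17 (SE, n = 3 per group), with a 95% confidence interval from 0.08 to 0.84, an unadjusted p of 0.0238 and a limma adjusted p of 0.412. The exact permutation p was 0.1, again the smallest possible. Groups that did not overlap with db/db higher were found for 16% of the mRNA probes and 9.75% of all probes tested, so a separation of this kind was not rare. Within slide 2 the difference was 0.34. That all 3 db/db arrays lay above C57BL/6 replicate 3 follows from the separation of the levels, and 12 of the 50 mRNA probes did so. The Pex11a spot signal was 405 to 782 times the local background, so background subtraction hardly touches it. All 7 of its spot positions free of outliers separated the groups, but they repeat 1 probe on the same arrays and add no support.

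**Figure D2:**
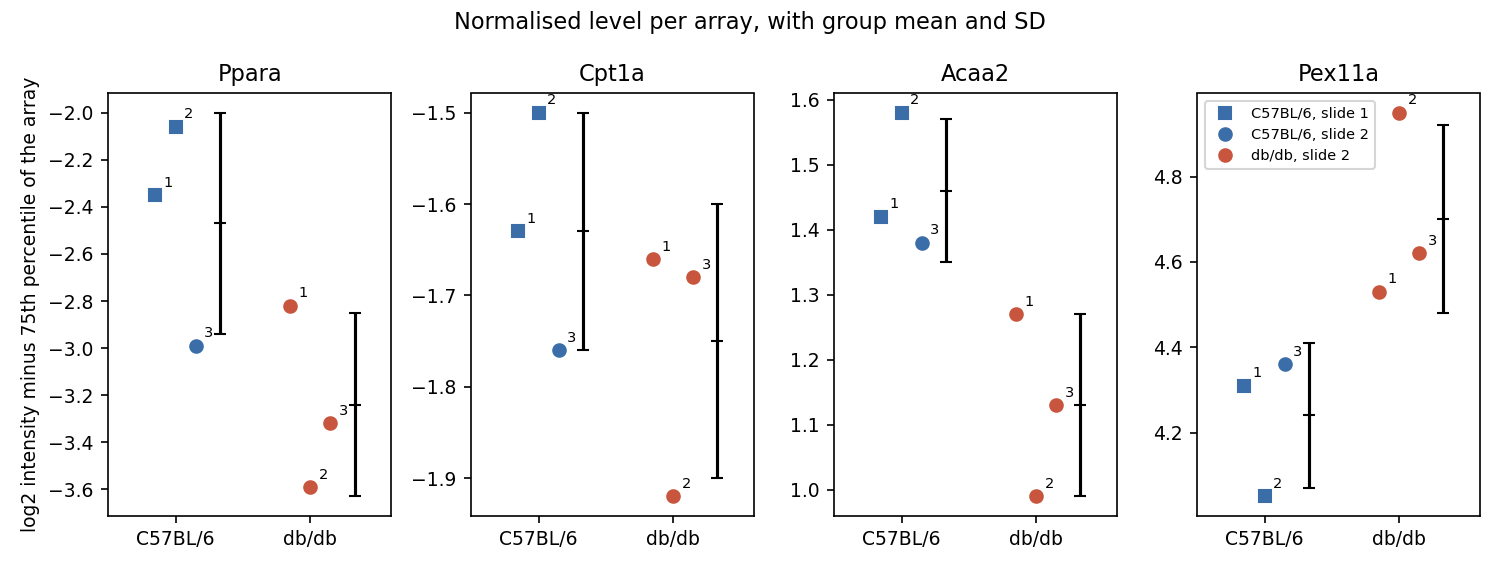
Level of each gene (log2 processed intensity minus the 75th percentile of the array) on the 6 arrays by group, numbered by replicate, with group mean and SD as black bars; each panel has its own vertical range. Groups overlap for Ppara and Cpt1a, while db/db lies wholly below C57BL/6 for Acaa2 (at most 1.27 against at least 1.38) and wholly above it for Pex11a (at least 4.53 against at most 4.36).

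By limma, 0 of the 4 genes passed an adjusted p under 0.05, and 0 of all 14312 probes did (0%). An unadjusted p under 0.05 was reached by Ppara and Pex11a, next to 10.6% of all probes tested (1512; 4.49% higher and 6.07% lower in db/db) and 16% of the mRNA probes (8 of 50; 14% higher and 2% lower). Groups did not overlap for Acaa2 and Pex11a, next to 17% of all probes tested and 18% of the mRNA probes. The median log2 difference of the 4 genes was -0.23, beside -0.027 over the mRNA probes and 0.013 over all probes tested. Ppara, Acaa2 and Cpt1a ranked 1, 3 and 17 from the lowest of the 50 mRNA probes, and Pex11a ranked 47. Differences at least as large in either direction were found for 1.95% (Ppara), 20.9% (Acaa2), 59.8% (Cpt1a) and 9.98% (Pex11a) of all probes tested.

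**Figure D3:**
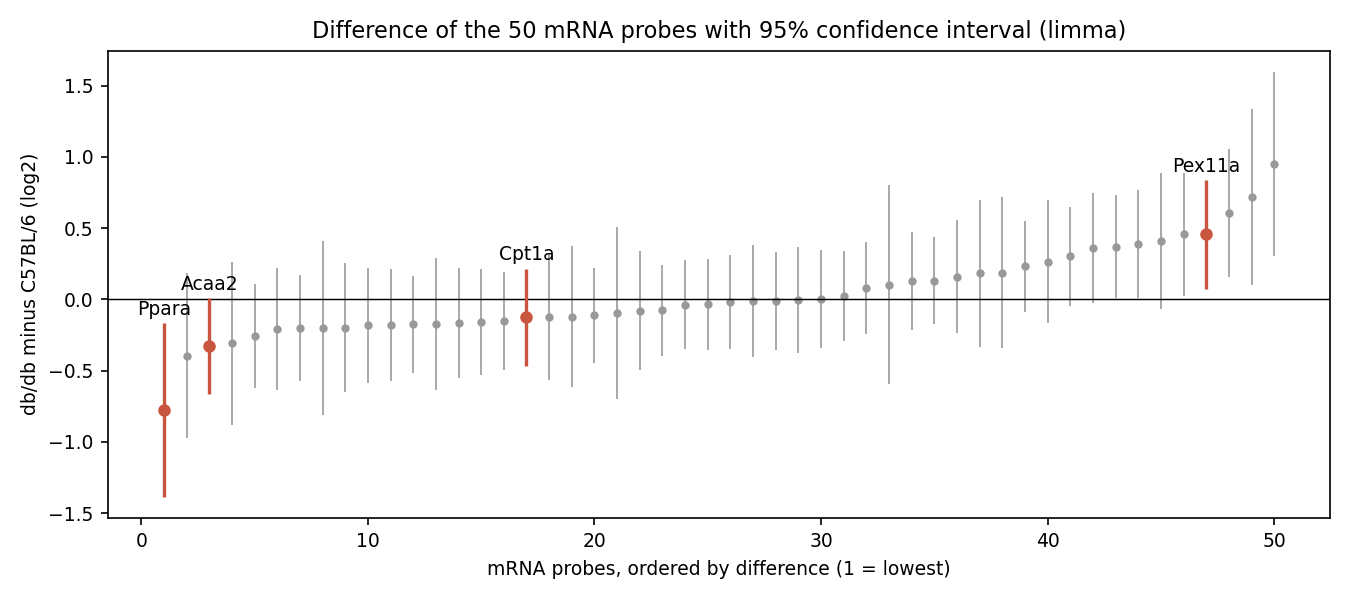
Log2 difference (db/db minus C57BL/6, vertical) of the 50 mRNA probes in ascending order (horizontal), with 95% confidence intervals from limma; the genes described here are red. Ppara has the lowest difference (-0.78), and Pex11a (0.46) is among the highest, while most intervals include 0.

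The 6 pairs among the 4 genes were also compared as within-array log2 ratios, which are the differences of their levels. A scaling common to both genes cancels in such a ratio, but a level that moves with array brightness does not. Only the shift of a ratio between groups is read, since its size also depends on the probes. The ratio of Pex11a to Acaa2 averaged 0.78 higher in db/db, from 2.90, 2.47 and 2.99 on the C57BL/6 arrays to 3.26, 3.96 and 3.49 on the db/db arrays. The ratio of Pex11a to Cpt1a averaged 0.58 higher and that of Pex11a to Ppara 1.23 higher, with no overlap in either, though for Ppara the nearest arrays were only 0.001 apart.

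The tightest of the ratios was Cpt1a to Acaa2, at -3.04, -3.08 and -3.13 for C57BL/6 replicates 1 to 3 and -2.94, -2.91 and -2.81 for db/db replicates 1 to 3. It averaged -3.08 ± 0.04 against -2.88 ± 0.07 (SD, n = 3) and was 0.25 higher in db/db within slide 2. Acaa2 thus read lower relative to Cpt1a on every db/db array, by a small amount. The ratios of Acaa2 and of Cpt1a to Ppara had overlapping groups. In all, 4 of the 6 ratios did not overlap, beside 20.6% of the 1225 pairs of mRNA probes. The 6 share their genes and arrays, 3 of these 4 contain Pex11a, and that of Pex11a to Acaa2 had to separate because both levels did, so the count is no support beyond the levels.

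Array brightness moved with these levels. From brightest to dimmest, the arrays were C57BL/6 replicates 1 and 2, db/db replicate 1, C57BL/6 replicate 3, and db/db replicates 3 and 2. The Ppara level followed that order except that the brightest pair changed places. Acaa2 and Cpt1a had the same arrays at both ends of the order as Ppara, and Pex11a ran nearly the opposite way. On slide 2, C57BL/6 replicate 3 was second in brightness and had the lowest Pex11a level, the latter following from the separation of the levels.

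With the 75th percentile of each array as a covariate, the log2 difference was -0.31 for Ppara, -0.22 for Acaa2, -0.000681 for Cpt1a and 0.31 for Pex11a, and the number of mRNA probes with an unadjusted p under 0.05 went from 8 to 0. The lowest limma adjusted p of the 4 genes was then 0.99991. That fit leaves 3 residual degrees of freedom. The brightest arrays were C57BL/6 replicates 1 and 2, alone on slide 1, and the dimmest were db/db replicates 3 and 2. Brightness, slide and group therefore cannot be fully told apart.

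**Figure D4:**
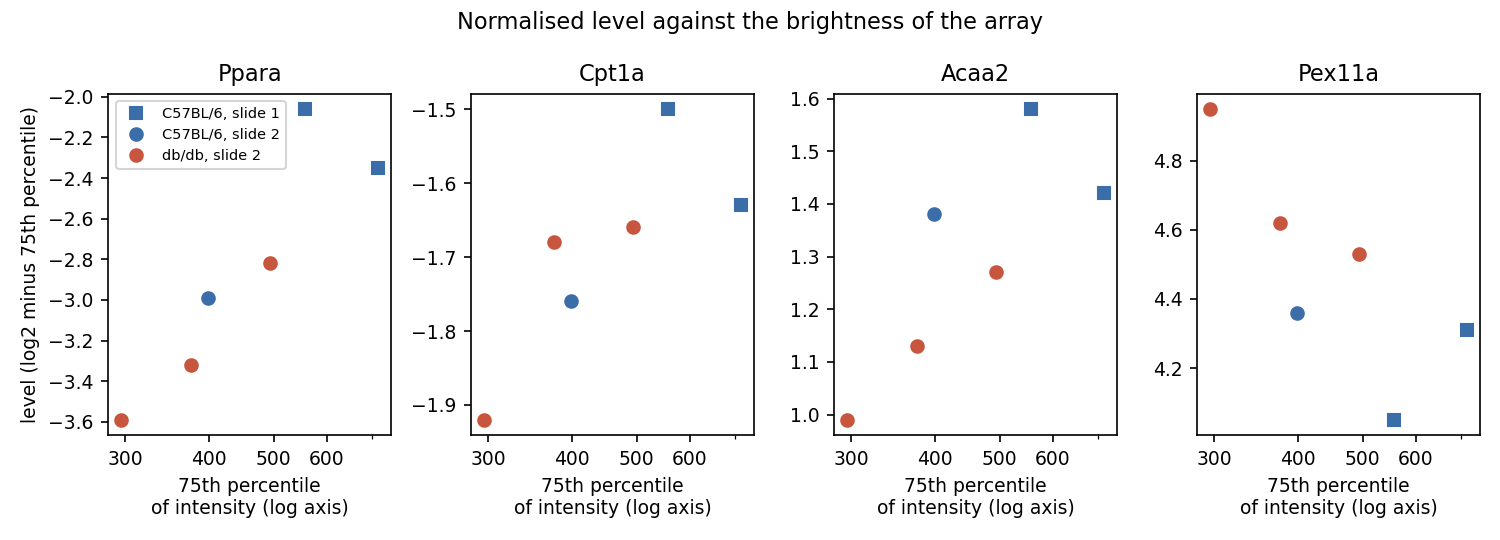
Level of each gene (vertical, log2) against the 75th percentile of processed intensity of the array (horizontal log axis), 1 point per array, squares for slide 1 and circles for slide 2. Ppara, Cpt1a and Acaa2 are highest on the bright C57BL/6 arrays of slide 1 and lowest on db/db replicate 2 (75th percentile 296), and Pex11a is highest there.

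The Ppara value changed most with the processing. It was -0.24 under normexp with an offset of 50, which is as large as the intensity of its probe on several arrays, and -0.71 under normexp with no offset. The median difference of all probes tested was 0.113 with the offset and 0.02 under normexp without it. With array weights it was -0.42. Without C57BL/6 replicate 3 it was -1.04, and all remaining C57BL/6 arrays were then on slide 1 and all db/db arrays on slide 2. The fit over the mRNA probes alone, the changed probe filters and the replicate block could not move an estimate. Pex11a stayed between 0.31 and 0.54 and Acaa2 between -0.40 and -0.22 in every alternative run. Neither had overlapping groups under the other background corrections, scalings and spot summaries, while the other alternatives leave the levels as they are or drop arrays and so could not create an overlap.

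**Figure D5:**
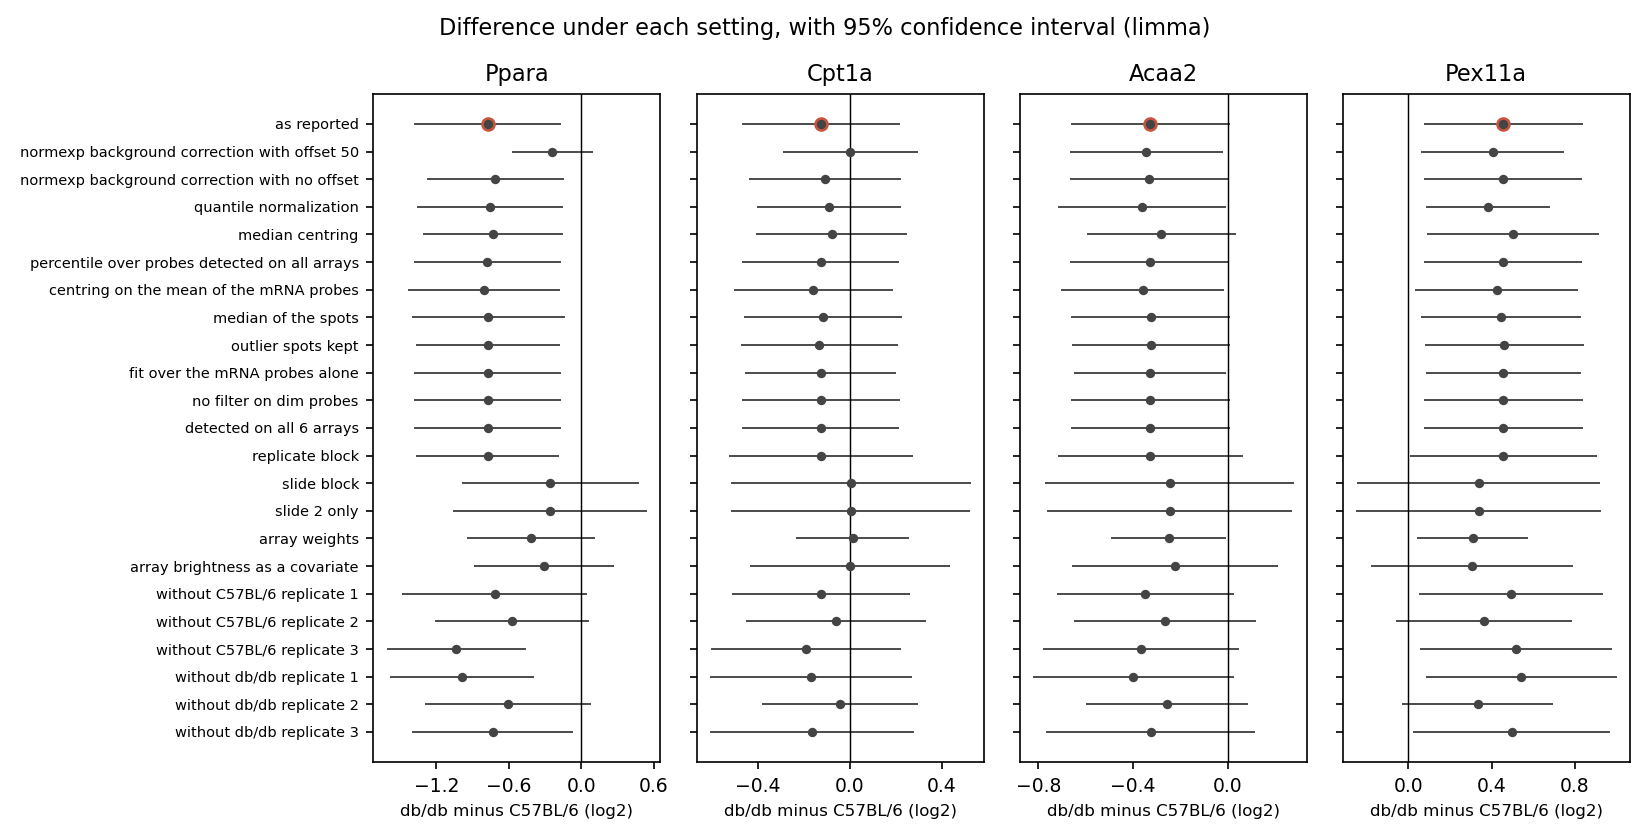
Log2 difference (db/db minus C57BL/6, horizontal) of each gene with its 95% confidence interval from limma under the reported setting (red) and 22 alternatives (vertical). The estimate of Pex11a stays above 0 (0.31 to 0.54) and those of Acaa2 and Ppara below it in all of them, while that of Cpt1a lies on both sides of 0. The Acaa2 interval includes 0 as reported (-0.66 to 0.01), and those of Pex11a and Ppara include 0 under some alternatives, such as the slide block.

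Other mRNA probes with a gene name were compared with the 4 genes by the root mean square difference over the 6 arrays, after each gene was centred on its mean. Hspb7, a small heat shock protein made in heart muscle and the single cardiomyocyte marker on the array, was nearest to Acaa2 (0.077, beside a median of 0.254 over 43 genes) and to Ppara (0.345, beside 0.535). Its level was 1.90, 2.13 and 1.78 in C57BL/6 and 1.89, 1.59 and 1.57 in db/db, and its log2 difference was -0.26 ± 0.16 (SE, limma adjusted p = 0.586, n = 3 per group). This heart muscle gene thus had 2 db/db arrays below all of C57BL/6 and 1 among them. Its part in the readings of Ppara and Acaa2 was not tested.

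After Hspb7, Ppara was nearest to Acaa2 (0.348) and to Carhsp1, a calcium-regulated RNA-binding protein (0.408). Acaa2 came next to Cpt1a (0.111) and Kcnn2, a potassium channel (0.119). Cpt1a was nearest to Kcnn2 (0.064), Spats1 (0.078) and the lipid carrier Apoe (0.083). Pex11a was near to the annexin Anxa8 (0.064) and the pore-forming protein Gsdmd (0.133), whose log2 differences were 0.39 and 0.37. A median gene was at 0.363 from Pex11a and at 0.199 from Cpt1a.

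The wider pathways were almost wholly outside the array's mRNA probes. Of 40 genes of fatty acid uptake, activation and mitochondrial oxidation, 3 had a probe, namely Ppara, Cpt1a and Acaa2. Of 38 genes of peroxisome biogenesis, division and oxidation only Pex11a had one, and of 19 PPAR-family receptors and partners only Ppara. Of the probes present, 0 passed an adjusted p under 0.05 by limma in either direction, so the readings above describe these genes and not their pathways.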

How the data were processed

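Per the labels' protocols, RNA was treated with RNase R, copied from random primers and given the dye Cy3. Per the file headers, Agilent Feature Extraction 11.0.1.1 read the 6 one-colour arrays, whose design is built on mm9. In the submitters' processing notes limma is listed too, with no role. Each deposited file holds an intensity per spot that was corrected for local background and for trends across its array but not scaled between arrays, beside other columns (0 or 1 flags, control type, spot position). The authors' deposited series table covers 14236 circRNA probes and 0 mRNA probes, so it was not used and gave no alternative.

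The spots of a probe, 10 for each gene described here, were averaged as log2 intensity after outliers were dropped. Each array's 75th percentile over non-control probes was then taken off. The array holds 15176 non-control spots for 14330 non-control probes, so most other probes had a single spot. Shares over all probes tested therefore come mostly from circRNA probes with a single spot. The contrast was fitted by limma 3.58.1 under R 4.3.3 (lmFit, eBayes, two-sided) over 14312 non-control probes, each with a value on every array and, in at least 50% of its spots, well above background on at least 3. Benjamini-Hochberg adjustment ran over all of them at a threshold of 0.05, and the code was tested on simulated data. The number of arrays limits precision, and the labels count 3 mice per group. By rule, all 4 genes, pathway and marker genes with a probe, and the 3 genes of nearest pattern were named, except 1 that is not reported here. The genes and lists were chosen with earlier results of these data known. Normexp without offset and brightness as a covariate were chosen after seeing the data. Normexp was run on the median spot signal.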

Additional observations from a re-analysis of the deposited data

How the results depend on the processing

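No alternative brought any of the 4 genes or any other probe past an adjusted p of 0.05 by limma (0 probes throughout, beside 1512 at an unadjusted p under 0.05). Across the 16 settings other than leaving out an array, the log2 difference ranged from -0.81 to -0.24 for Ppara, -0.36 to -0.22 for Acaa2 and 0.31 to 0.50 for Pex11a. Leaving out 1 array gave -1.04 to -0.57 for Ppara, -0.40 to -0.26 for Acaa2, -0.19 to -0.04 for Cpt1a and 0.33 to 0.54 for Pex11a. The sign of Cpt1a turned within slide 2 (0.00277), with array weights (0.0109) and with normexp at an offset of 50 (0.000725), and the cause was not tested. The slide block repeats the slide 2 estimate of each gene, since slide 1 holds only C57BL/6 arrays. The unadjusted p of Pex11a was 0.22 with the slide block and 0.0839 without C57BL/6 replicate 2, and that of Ppara was 0.442 and 0.0716.

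The 8 mRNA probes at an unadjusted p under 0.05 became 0 with the slide block, within slide 2 and with the brightness covariate, 5 with array weights, 4 when C57BL/6 replicate 1 was left out, and 3 when either C57BL/6 replicate 2 or db/db replicate 2 was. The 9 mRNA probes without overlap became 14 to 17 without C57BL/6 replicate 2 or 3 or db/db replicate 1 or 3, where 2 arrays face 3, and 21 within slide 2, where 1 faces 3. Over all probes the 1512 became 186 with the slide block, 230 within slide 2 and 358 with brightness as a covariate. Deviations of same-numbered arrays correlated at -0.26, -0.135 and 0.42 across probes for replicates 1, 2 and 3, so the numbers were not taken to pair the arrays, and the replicate block gave 1602 in place of 1512 and changed no call, with an adjusted p of 0.337 for Ppara, 0.515 for Acaa2, 0.833 for Cpt1a and 0.439 for Pex11a. Fits within slide 2 assume that the lone C57BL/6 array varies like db/db.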
